A study of Homo sapiens with 54 samples.

Results

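The transcripts described here encode 8 enzymes of the pentose phosphate pathway and of cytosolic NADPH supply, namely PGD, PGLS, TKT, TALDO1, RPIA, RPE, ME1 and IDH1. They were chosen with earlier results of these data known and were taken by symbol from a count table of 27978 genes. All 8 were found and passed the filter on low counts in every comparison. The pentose phosphate pathway branches from the start of glycolysis. Its oxidative steps convert glucose phosphate to ribulose phosphate and reduce NADP+ to NADPH, and its non-oxidative steps interconvert pentose phosphates with sugars of glycolysis and supply the ribose of nucleotides. Cytosolic malic enzyme and isocitrate dehydrogenase are further sources of NADPH, which cells use for fatty acid synthesis and to keep glutathione and thioredoxin reduced, and tumor cells are known to draw on all of these routes.

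RNA-seq was carried out on MDA-MB-231 cells, a human breast cancer line with a mesenchymal character that lacks estrogen and progesterone receptors. Cells were left untreated (UT) or were given Compound Kushen Injection (CKI, an extract of medicinal roots rich in alkaloids) at 2 mg/ml or a reconstituted mixture at an equivalent dose. In batch 1, UT cells, CKI and 4 mixtures were sampled at 24 h and at 48 h. N_2 was CKI without oxymatrine (Omt) and oxysophocarpine (Ospc), N_3 was CKI without macrozamin (Mac), Omt and Ospc, OO held only Omt and Ospc, and MOO held only Mac, Omt and Ospc. In batch 2, all at 48 h, UT cells and CKI were set beside 4 mixtures that each lacked 1 compound: Mac (N_Mac), N-methylcytisine (Nme, N_Nme), Omt (N_Omt) or trifolirhizin (Tri, N_Tri). This gave 18 groups of 3 replicates, described by the depositors as biological, or 54 libraries. All results are from 1 cell line and 1 dose, and in RNA from whole cultures fewer cells with a transcript and less of it per cell cannot be told apart. The UT cells of a time and batch were the control for every treatment of that time and batch, so those comparisons share control libraries.

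Library totals ranged from 17673537 to 26138924 counts with a median of 22568666.5, and the 8 genes received between 165 and 16360 counts in a library. The markers went with the labelled cell type, but markers of the brain and colon cancer lines that the laboratory also used were not checked. VIM, CD44, CAV1, MSN, EGFR and AXL were each at 66.8 CPM (counts scaled to the library total, with TMM factors) or more in every library, and ESR1 and PGR reached at most 0.334 CPM. CDH1 was at 0.0489 to 7.20 CPM and EPCAM at 6.19 to 27.7 CPM. Of the other lines used by the laboratory, the 4 markers of HEK-293 cells summed to at most 0.530 CPM, and the 6 of skin fibroblasts to 11.8 to 85.2 CPM, mostly COL1A1 and COL1A2. In 3 libraries of batch 1 at 24 h (CKI replicate 1, OO replicate 2 and N_3 replicate 2) the deviation from the group mates followed the difference between the batches, with a slope of 0.591 to 0.682 over 709 genes that differed between UT cells of batch 2 and batch 1 at 48 h. The slope of the other 33 libraries of batch 1 was -0.407 to 0.0986. Values at 24 h are given with all libraries, and a named result that uses one of these 3 is also given without them where it was called or its call changed.

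The TMM factors of edgeR were computed over all 54 libraries. Per kilobase of the principal transcript, untreated cells at 24 h held most of TKT and TALDO1, at 202 ± 10.2 and 197 ± 14.9 CPM per kilobase (SD, n = 3), followed by PGD at 90.1 ± 2.75 and PGLS at 88.4 ± 12.2. IDH1 stood at 35.9 ± 1.68 CPM per kilobase, RPIA at 17.1 ± 1.58, RPE at 10.8 ± 0.895 and ME1 at 7.62 ± 0.602. The first pair and the second pair were each within their spread, and the other steps of this order exceeded it. Between the batches, untreated cells at 48 h held less PGD and PGLS in batch 2 than in batch 1 (115.6 against 158.2 CPM and 55.1 against 79.8 CPM) and more ME1 (36.2 against 28.7 CPM), so each treatment was compared only with the cells of its own time and batch.

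**Figure D1:**
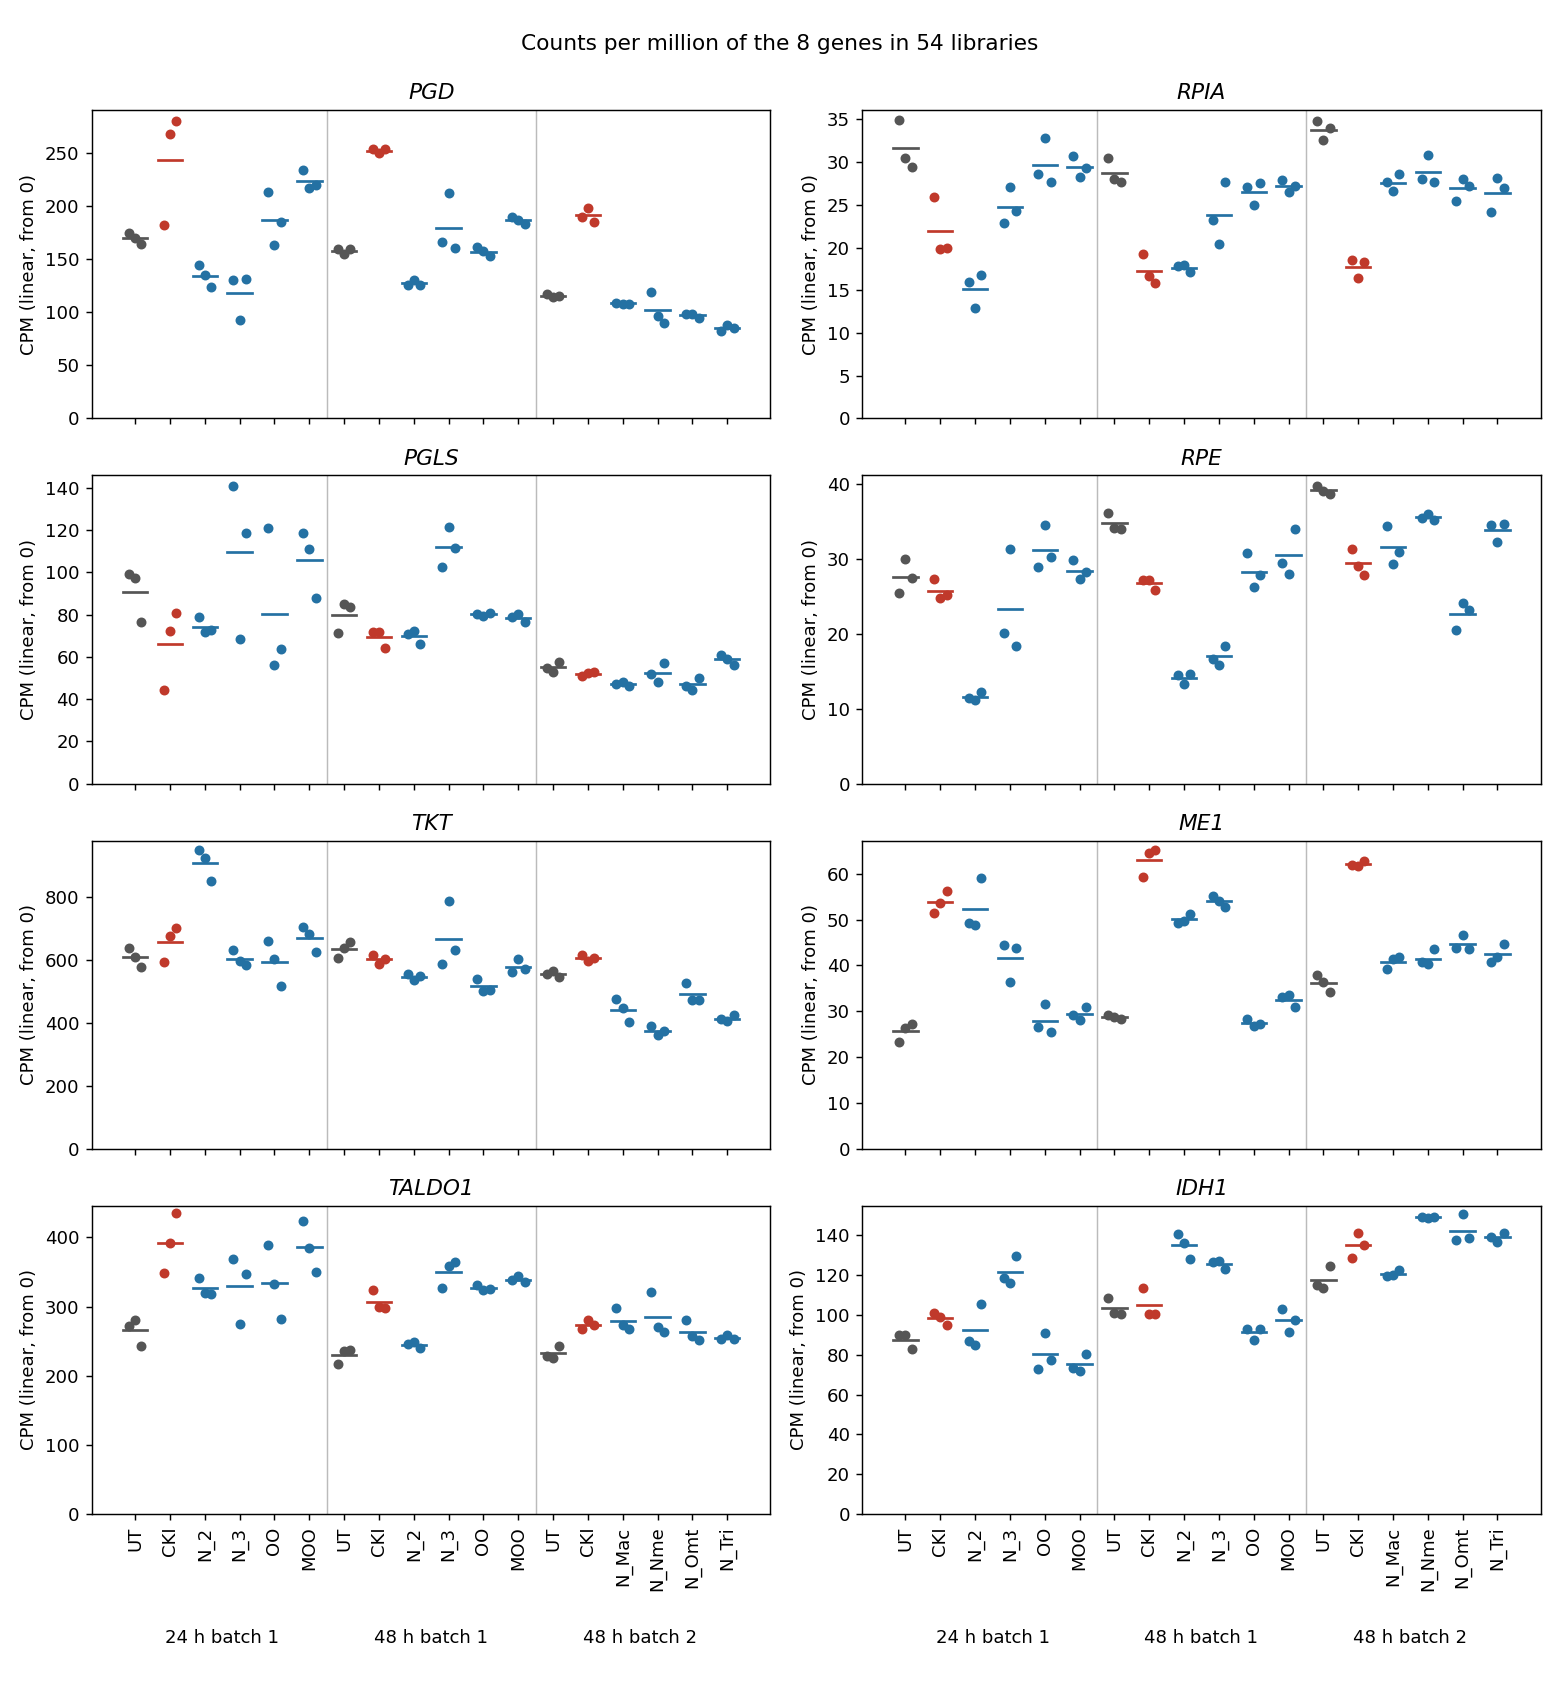
Level of each gene (CPM, linear axes from 0) in the 54 libraries, with 1 point per library and a bar at the mean of each group of 3. Untreated groups are gray, CKI is red and the other mixtures are blue, and vertical lines separate 24 h batch 1, 48 h batch 1 and 48 h batch 2. PGD and ME1 stood highest with CKI in each batch at 48 h, and RPE stood lowest with N_2 at both times.

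Across the 15 treated groups, the 8 genes did not move as a block. Of their 120 comparisons with untreated cells, 38 passed the threshold as higher and 38 as lower (adjusted p under 0.05, quasi-likelihood test of edgeR, adjusted by the Benjamini-Hochberg method over all genes tested). ME1 rose in 12 of the 15 comparisons and TALDO1 in 11, and neither fell in any. RPIA and RPE each fell in 11 and rose in none. PGD rose in 5 and fell in 5, IDH1 rose in 7 and fell in 1, TKT rose in 2 and fell in 6, and PGLS rose in 1 and fell in 4. These treatments moved a large share of all genes, and the counts in each comparison are read against that share. How many of the 15 comparisons moved a gene was not counted for all genes. Neither was the share of all genes whose libraries did not overlap between groups, so a lack of overlap is only a description below.

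At 24 h, 4 of the 8 were called with CKI, where 30% of all 15191 genes tested were called. N_2 gave 5 (62.1% of all genes), N_3 gave 4 (45%), MOO gave 1 (10.5%) and OO gave none (16.7%). The OO count of 0 came from edgeR, 1 gene (TALDO1) had an unadjusted p under 0.05, and DESeq2 also called 0. Without the 3 libraries that resembled batch 2, the counts were 4 for CKI, 6 for N_2, 7 for N_3, 2 for MOO and 0 for OO, and the shares of all 15424 genes tested then were also higher, at 32.7%, 68.5%, 54.2%, 20.2% and 22.3% in the same order. At 48 h in batch 1, 6 were called with CKI (54% of all genes), 7 with N_2 (76.6%), 7 with N_3 (71.1%), 4 with OO (57.8%) and 4 with MOO (51.2%). At 48 h in batch 2, 7 were called with CKI (66.4%), 6 with N_Mac (72.4%), 7 with N_Nme (71.3%), 8 with N_Omt (78.2%) and 6 with N_Tri (72.2%). In most comparisons the share of the 8 that was called lay near the share of all genes. The median log2 fold change of the 8 lay between -0.21 (N_Omt) and 0.23 (N_3 at 48 h), and that of all genes between -0.01 and 0.03.

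**Figure D2:**
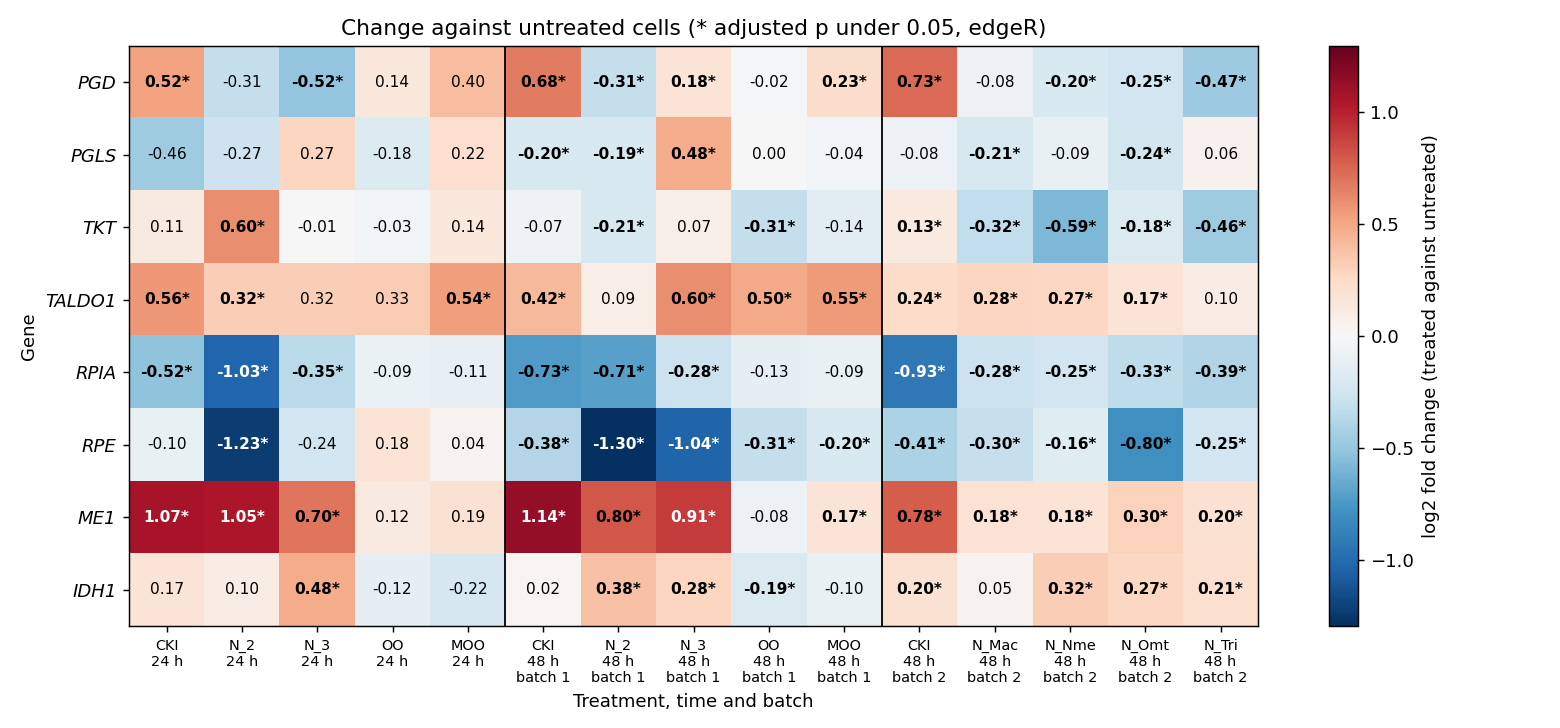
Log2 fold change of each gene (rows) in each treated group against untreated cells of the same time and batch (columns), with red for higher and blue for lower. Bold values with a star passed the threshold, and the ME1 and TALDO1 rows hold no lower call while the RPIA and RPE rows hold no higher call.

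PGD, ME1, TALDO1 and TKT are often named among NRF2 targets, so the 250 bases before each start site were searched on both strands for the core of the antioxidant response element, TGACNNNGC, in RefSeq promoters of GRCh38.p14 (the counts were made on hg19). All 8 genes matched the promoter table with 9 windows, 2 of them for IDH1. ME1, PGD, RPE and IDH1 held the core before the start site, and TALDO1, TKT, PGLS and RPIA did not hold it there. Of all 35116 windows, which run 250 bases before to 50 after the start, 13.3% held it on either strand. The stretches below are shown because ME1 and PGD rose and RPE fell with CKI at 48 h, and all of them hold the core. They read from 5′ to 3′ on the strand of the gene, and capitals mark the match.
ME1: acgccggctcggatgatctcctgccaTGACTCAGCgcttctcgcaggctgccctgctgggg
PGD: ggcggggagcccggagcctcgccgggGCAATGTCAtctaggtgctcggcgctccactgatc
RPE: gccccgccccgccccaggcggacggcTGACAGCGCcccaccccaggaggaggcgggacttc
IDH1: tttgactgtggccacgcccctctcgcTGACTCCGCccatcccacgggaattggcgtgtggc
The ME1 stretch lies at chr6:83431154-83431214 on the minus strand, with the match at -137 to -129 from the start. Its first 7 letters, TGACTCA, are also the site of AP-1 factors. The PGD stretch lies at chr1:10398837-10398897 on the plus strand, and its match, at -201 to -193, reads on the opposite strand. The RPE stretch is at chr2:210002461-210002521 on the plus strand (match at -151 to -143) and the IDH1 stretch at chr2:208255180-208255240 on the minus strand (match at -143 to -135). Of the other motifs searched in the windows, GCGTG, the core of the xenobiotic response element, was in 5 of the 9 windows (PGD, RPIA, ME1 and both of IDH1) and in 36.5% of all, and the sterol response element TCACNCCAC was in none of the 9 and in 1.13% of all. A match is a description of letters in a window, and binding was not measured.

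PGD, phosphogluconate dehydrogenase, carries out the NADPH-forming decarboxylation that closes the oxidative branch. At 48 h in batch 1, untreated cells held 159.8, 155.4 and 159.6 CPM and CKI cells 253.8, 250.4 and 253.7 CPM. In batch 2 the untreated libraries were at 117.4, 114.4 and 115.1 CPM and the CKI libraries at 190.4, 198.9 and 184.9 CPM. Every CKI library stood above every untreated one in both batches, and PGD rose by a log2 fold change of 0.68 ± 0.08 (SE, adjusted p = 1.90e-07) and 0.73 ± 0.06 (adjusted p = 1.04e-11). At 24 h the CKI libraries were at 182.1, 267.9 and 280.7 CPM against 174.7, 170.6 and 164.4 CPM in untreated cells, a log2 fold change of 0.52 ± 0.16 (adjusted p = 0.0187). The lowest of them, replicate 1, is one of the 3 libraries that resembled batch 2, and the change was 0.69 ± 0.09 without those 3 (adjusted p = 6.68e-05). Leaving out CKI replicate 3, CKI replicate 2, UT replicate 2 or UT replicate 3 alone took the 24 h value to 0.41, 0.45, 0.53 or 0.50 and its adjusted p to between 0.0541 and 0.0850.

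With the mixtures other than CKI, PGD was lower on average than in untreated cells in 8 of 12 groups. At 48 h N_2 held 125.6, 130.4 and 126.0 CPM, a fall of 0.31 ± 0.08 on the log2 scale (adjusted p = 9.70e-04). N_Tri held 82.6, 88.1 and 85.5 CPM, the lowest of the 18 groups, and PGD fell there by 0.47 ± 0.07 (adjusted p = 1.35e-07). Falls also passed with N_Omt (log2 fold change -0.25 ± 0.06) and with N_Nme (-0.20 ± 0.06). The N_Nme libraries read 118.9, 96.9 and 90.2 CPM, of which the first lay above all untreated libraries, and the call was lost without replicate 2 (-0.15, adjusted p = 0.0616) or without replicate 3 (-0.11, adjusted p = 0.102). N_Mac libraries (108.8, 108.2 and 108.3 CPM) lay below all untreated ones, and the log2 fold change of -0.08 ± 0.06 did not pass (adjusted p = 0.261). At 24 h PGD fell with N_3 (131.0, 92.6 and 131.2 CPM, log2 fold change -0.52 ± 0.16, adjusted p = 0.0131). It was -0.37 ± 0.09 without the 3 libraries (adjusted p = 0.00432), and -0.37 with an adjusted p of 0.0541 when only N_3 replicate 2 was left out. Without the 3 libraries PGD also passed at 24 h as lower with N_2 (-0.32 ± 0.08, adjusted p = 0.00372, against -0.31 ± 0.16 and 0.0928 with all) and as higher with MOO (0.40 ± 0.08, adjusted p = 0.00374, against 0.40 ± 0.16 and 0.123). N_3 at 48 h read 166.0, 212.2 and 160.8 CPM and passed as higher (0.18 ± 0.08, adjusted p = 0.0449), a value that was 0.04 without replicate 2 (adjusted p = 0.556) and that also lost its call without any single untreated library (0.16 to 0.19, adjusted p up to 0.116). MOO at 48 h held 189.7, 187.1 and 183.6 CPM (0.23 ± 0.08, adjusted p = 0.0172) and OO 161.6, 157.9 and 152.8 CPM (-0.02 ± 0.08, adjusted p = 0.852). The MOO call was lost without UT replicate 2 or MOO replicate 1 (0.22 and 0.21, adjusted p = 0.0571 and 0.0553).

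PGLS, the lactonase that acts just before PGD, changed least often. At 24 h its libraries were spread widely within groups. They lay between 44.4 and 80.9 CPM with CKI, between 68.6 and 141.0 CPM with N_3, between 56.0 and 121.2 CPM with OO and between 76.5 and 99.1 CPM in untreated cells, and no 24 h comparison with untreated cells passed. Without the 3 libraries the change with N_3 was 0.52 ± 0.21 and passed (adjusted p = 0.0460), against 0.27 ± 0.28 with all. At 48 h N_3 cells held 102.6, 121.4 and 111.5 CPM against 71.2, 84.8 and 83.5 CPM in untreated cells, with no overlap, and PGLS rose by 0.48 ± 0.07 (adjusted p = 5.47e-06). With CKI and with N_2 at 48 h in batch 1 it fell by 0.20 ± 0.07 and 0.19 ± 0.08, though the libraries overlapped with untreated cells. Both of these calls were lost without UT replicate 2 or UT replicate 3, without CKI replicate 3 for CKI and without N_2 replicate 3 for N_2 (log2 fold changes of -0.17 to -0.16, adjusted p from 0.0822 to 0.134). N_Mac and N_Omt cells in batch 2 held 46.0 to 48.3 and 44.5 to 50.1 CPM against 52.9 to 57.6 CPM in untreated cells, and PGLS fell by 0.21 ± 0.06 and 0.24 ± 0.06. The change of -0.09 ± 0.06 with N_Nme did not pass, and it passed without N_Nme replicate 3 (-0.16, adjusted p = 0.0219).

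TKT, transketolase, moves carbon units between the sugars of the non-oxidative branch. In batch 2 it separated whole CKI from the 4 mixtures. Untreated cells held 555.7, 562.7 and 546.5 CPM, and CKI cells 615.4, 595.9 and 606.3 CPM, a small rise (0.13 ± 0.06, adjusted p = 0.0395) that was lost when any one of UT replicates 1 and 3 or the CKI replicates was left out (0.11 to 0.14, adjusted p from 0.0573 to 0.105). N_Nme cells held 389.3, 362.0 and 373.4 CPM and N_Tri cells 411.3, 404.0 and 424.0 CPM, below every untreated library, and TKT fell there by 0.59 ± 0.06 and 0.46 ± 0.06 (adjusted p = 6.23e-11 and 1.05e-08). It also fell with N_Mac (-0.32 ± 0.06) and N_Omt (-0.18 ± 0.06). In batch 1 the highest level of the series was that of N_2 at 24 h, with 948.1, 922.3 and 849.1 CPM against 637.9, 608.4 and 576.2 CPM in untreated cells, and TKT rose by 0.60 ± 0.11 (adjusted p = 1.24e-04). At 48 h the same mixture gave 553.5, 536.0 and 548.2 CPM against 604.0, 636.2 and 656.5 CPM, and TKT fell by 0.21 ± 0.08 (adjusted p = 0.0232), a call lost without UT replicate 3 or N_2 replicate 2 (-0.19 and -0.20, adjusted p = 0.0723 and 0.0613). OO at 48 h (539.8, 501.7 and 504.5 CPM) also lay below untreated cells (-0.31 ± 0.08, adjusted p = 0.0029).

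The N_2 libraries at 24 h differed in composition from all others: their TMM factors were 0.775 to 0.842, against 0.894 to 1.07 in the other 51. Scaled by library totals alone, the median of all genes in N_2 against untreated cells at 24 h moved by -0.31, and the TKT change was 0.29 ± 0.09, still called. Under that scaling the PGD change with N_2 at 24 h was -0.62 ± 0.13 and called, while TALDO1 was at 0.01 ± 0.11 and no longer called.

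TALDO1, transaldolase, acts in the same branch, and it was higher on average than untreated cells in all 15 treated groups. All 3 treated libraries stood above all 3 untreated ones in 14 of the 15. These comparisons share untreated libraries within a time and batch, and the share of all genes with such a separation was not computed. At 48 h in batch 1 untreated cells held 217.0, 236.2 and 237.3 CPM. N_3 cells held 327.2, 359.2 and 364.2 CPM, MOO cells 338.1, 343.8 and 335.3 CPM and OO cells 331.1, 323.4 and 326.1 CPM, and CKI cells 323.8, 299.8 and 298.3 CPM. TALDO1 thus rose by 0.60 ± 0.06, 0.55 ± 0.06, 0.50 ± 0.06 and 0.42 ± 0.06, with adjusted p-values of 6.70e-06 or lower. N_2, which like N_3 lacked Omt and Ospc, did not pass, at 245.8, 249.3 and 239.5 CPM (0.09 ± 0.06, adjusted p = 0.192). At 24 h it rose with CKI (0.56 ± 0.14, and 0.64 ± 0.13 without the 3 libraries) and MOO (0.54 ± 0.14), and with N_2 by 0.32 ± 0.14 (adjusted p = 0.0484), a call that did not hold without any 1 library of N_2 or of the untreated cells (0.25 to 0.36, adjusted p from 0.059 to 0.173). The MOO call at 24 h was lost without UT replicate 1 or 3 or MOO replicate 1 or 2 (0.47 to 0.56, adjusted p from 0.051 to 0.0849). N_3 at 24 h (368.9, 274.8 and 347.2 CPM) did not pass with all libraries (0.32 ± 0.14, adjusted p = 0.0642) and passed without the 3 that resembled batch 2 (0.44 ± 0.13, adjusted p = 0.0103). In batch 2 the rises were smaller, from 0.17 ± 0.06 with N_Omt to 0.28 ± 0.06 with N_Mac, and the 0.10 ± 0.06 with N_Tri did not pass (adjusted p = 0.144). The N_Omt call was lost without N_Omt replicate 1 (0.12, adjusted p = 0.0997).

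RPIA, which isomerizes ribulose phosphate to the ribose phosphate used for nucleotides, was lower on average than untreated cells in all 15 treated groups. The largest falls were with N_2 and with CKI. At 24 h N_2 cells held 16.0, 12.9 and 16.8 CPM against 35.0, 30.4 and 29.5 CPM in untreated cells, a fall of 1.03 ± 0.14 (adjusted p = 6.31e-06). In batch 2 CKI cells held 18.6, 16.5 and 18.3 CPM against 34.8, 32.6 and 34.0 CPM, a fall of 0.93 ± 0.07 (adjusted p = 2.99e-13). In both cases the treated level was close to 50% of the untreated one, with folds of 0.489 and 0.527. CKI in batch 1 gave 0.52 ± 0.13 and 0.73 ± 0.09 as the falls at 24 and 48 h, and the first was 0.67 ± 0.12 without the 3 libraries. The 4 mixtures lacking 1 compound lay between 24.2 and 30.9 CPM, below untreated and above CKI cells, with falls of 0.25 ± 0.06 (N_Nme) to 0.39 ± 0.07 (N_Tri). OO and MOO, which hold only the removed compounds, had no call at either time (-0.13 to -0.09). The fall with N_3 passed at both times (-0.35 ± 0.13 and -0.28 ± 0.09). At 24 h it lost its call without UT replicate 1 or 2 or N_3 replicate 1 or 3 (-0.38 to -0.28, adjusted p from 0.0695 to 0.16) and was -0.42 ± 0.11 without the 3 libraries (adjusted p = 0.0065), and at 48 h it lost it without UT replicate 1 (-0.22, adjusted p = 0.0637) or N_3 replicate 2 (-0.19, adjusted p = 0.055).

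RPE, the epimerase that turns ribulose phosphate into xylulose phosphate at the same branch point, fell most at 48 h in the mixtures without Omt (N_2, N_3 and N_Omt). N_2 cells held 11.4, 11.1 and 12.3 CPM at 24 h and 14.5, 13.4 and 14.6 CPM at 48 h. Untreated cells held 25.4, 30.0 and 27.5 CPM at 24 h and 36.2, 34.2 and 34.0 CPM at 48 h. RPE fell by 1.23 ± 0.16 and 1.30 ± 0.09 (adjusted p = 5.85e-06 and 4.46e-12), to folds of 0.427 and 0.407. N_3 at 48 h (16.7, 15.9 and 18.4 CPM) fell by 1.04 ± 0.08, and N_Omt in batch 2 (20.6, 24.1 and 23.1 CPM against 39.8, 39.1 and 38.8 CPM) by 0.80 ± 0.07 (adjusted p = 2.35e-10 and 2.94e-12). In the mixtures that kept Omt the falls at 48 h were smaller, at 0.41 ± 0.07 and 0.38 ± 0.08 with CKI in batch 2 and batch 1, 0.30 ± 0.07 with N_Mac, 0.25 ± 0.07 with N_Tri and 0.16 ± 0.06 with N_Nme. OO and MOO gave 0.31 ± 0.08 and 0.20 ± 0.08 as the falls at 48 h and no call at 24 h. The MOO call was lost without UT replicate 1, 2 or 3 or MOO replicate 1 or 2 (-0.22 to -0.15, adjusted p from 0.0593 to 0.157), and the N_Nme call without UT replicate 1 or N_Nme replicate 2 or 3 (-0.16 to -0.15, adjusted p from 0.0612 to 0.0759). N_3 at 24 h read 20.1, 31.3 and 18.4 CPM, where the second library is one of the 3 that resembled batch 2. The change was -0.24 ± 0.16 with it (adjusted p = 0.219) and -0.52 ± 0.10 without the 3 (adjusted p = 6.54e-04). RPEL1, a near copy of RPE, had 0 to 5 counts in a library, against 165 or more for RPE.

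ME1, the cytosolic malic enzyme that forms NADPH while turning malate to pyruvate, showed the largest rises. Untreated cells held 23.4, 26.4 and 27.3 CPM at 24 h, 29.2, 28.7 and 28.2 CPM at 48 h in batch 1 and 37.9, 36.3 and 34.3 CPM in batch 2. With CKI the libraries read 51.5, 53.6 and 56.2 CPM, 59.3, 64.5 and 65.2 CPM, and 61.8, 61.7 and 62.7 CPM. The CKI libraries did not overlap with untreated ones, and ME1 rose to folds of 2.10, 2.20 and 1.72 (log2 fold changes of 1.07 ± 0.12, 1.14 ± 0.06 and 0.78 ± 0.05, adjusted p = 1.09e-05, 1.68e-12 and 5.81e-14). N_2 kept much of the rise, with 49.4, 48.8 and 59.1 CPM at 24 h (1.05 ± 0.12) and 49.3, 49.6 and 51.3 CPM at 48 h (0.80 ± 0.06), and so did N_3 (0.70 ± 0.12 and 0.91 ± 0.06). The 24 h rises without the 3 libraries were 1.09 ± 0.10 with CKI and 0.78 ± 0.10 with N_3. OO libraries overlapped with untreated ones at both times (0.12 ± 0.12 and -0.08 ± 0.06). MOO passed only at 48 h (33.1, 33.6 and 31.0 CPM, 0.17 ± 0.06, adjusted p = 0.0277), and that call was lost without UT replicate 2 or 3 or MOO replicate 1 or 2 (0.14 to 0.17, adjusted p from 0.0639 to 0.121). In batch 2 each of the 4 mixtures rose by 0.18 ± 0.06 to 0.30 ± 0.06, with libraries between 39.1 and 46.7 CPM.

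IDH1, the NADP+-dependent isocitrate dehydrogenase of cytosol and peroxisomes, stayed between folds of 0.860 and 1.39 of its untreated level. It rose with N_3 at 24 h (118.8, 116.2 and 129.5 CPM against 89.9, 89.9 and 82.8 CPM, 0.48 ± 0.11, adjusted p = 0.00205, and 0.51 ± 0.10 without the 3 libraries) and with N_2 at 48 h (140.8, 136.0 and 128.0 CPM against 108.6, 101.0 and 100.5 CPM, 0.38 ± 0.07, adjusted p = 1.73e-05). In batch 2 the 3 N_Nme libraries lay within 149.0 and 149.4 CPM, against 113.4 to 124.8 CPM in untreated cells (0.32 ± 0.05, adjusted p = 5.93e-07). CKI raised it in batch 2 (0.20 ± 0.05) and not in batch 1 (0.02 ± 0.07 at 48 h, adjusted p = 0.798), a difference of 0.19 ± 0.08 that was not called (adjusted p = 0.11), though it passed without CKI replicate 1 of batch 1 at 48 h (0.26, adjusted p = 0.0277). With OO at 48 h it fell by 0.19 ± 0.07, which lost its call without UT replicate 1 or OO replicate 2 (-0.16 and -0.17, adjusted p = 0.0643 and 0.0699). The antisense gene IDH1-AS1, which overlaps IDH1, had 5 to 53 counts in a library against 1257 or more for IDH1, and the strand setting of the counting is not given in the sources used here.

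The mixtures were also compared with whole CKI. They were fractionated and reconstituted, and a fully reconstituted CKI was not analysed here, so the lack of a compound and this handling cannot be told apart in these differences. PGD was below CKI in all 8 of these comparisons, and no library of a mixture overlapped with one of CKI. In batch 2 the log2 difference was -0.81 ± 0.06 with N_Mac, -0.93 ± 0.06 with N_Nme, -0.98 ± 0.06 with N_Omt and -1.20 ± 0.06 with N_Tri, or 0.435 to 0.570 of the CKI level. With N_2 and N_3 it was -0.99 ± 0.08 and -0.50 ± 0.08 at 48 h and -0.83 ± 0.16 and -1.04 ± 0.16 at 24 h, where the values without the 3 libraries were -1.01 ± 0.09 and -1.06 ± 0.10. ME1 was also below CKI with all 4 mixtures of batch 2 (-0.60 ± 0.05 with N_Mac, -0.60 ± 0.05 with N_Nme, -0.48 ± 0.05 with N_Omt and -0.58 ± 0.05 with N_Tri), and RPIA was above it with all 4 (0.54 ± 0.07 to 0.67 ± 0.07). TKT was below CKI with all 4 as well (-0.31 ± 0.06 with N_Omt to -0.72 ± 0.06 with N_Nme). RPE parted the 4, since it was lower than CKI with N_Omt (-0.39 ± 0.07) and higher with N_Nme (0.25 ± 0.07) and N_Tri (0.16 ± 0.07, a call lost without any of CKI replicates 2 and 3 and N_Tri replicates 1 and 3, at 0.13 to 0.16). For TALDO1 the differences from CKI lay between -0.14 (N_Tri, a call lost when any 1 of the 6 libraries was left out) and 0.04, and for N_Mac, N_Nme and N_Omt their 95% intervals ran from -0.19 at the lowest to 0.16 at the highest. The 4 mixtures share the CKI libraries and were not tested against each other.

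Of the 8 genes, 6 were called between N_Mac and CKI (69.4% of all genes), 6 between N_Nme and CKI (71.5%), 6 between N_Omt and CKI (76.3%) and 7 between N_Tri and CKI (71.4%). In batch 1, N_2 against CKI gave 4 at 24 h (58.7%) and 5 at 48 h (73.1%), and N_3 against CKI gave 3 (35.7%) and 7 (67.2%). At 24 h the counts without the 3 libraries were 5 (61.7%) and 5 (43.7%), since TALDO1 then passed in N_2 against CKI (-0.32 ± 0.13) and PGLS and RPE in N_3 against CKI (0.77 ± 0.23 and -0.37 ± 0.11). With library totals alone the median of all genes in N_2 against CKI at 24 h moved by -0.36, and 6 of the 8 were called. N_2 and N_3 differ by Mac, which only N_2 contains, and N_3 against N_2 gave 5 at 24 h (47.6%) and 6 at 48 h (51%). At 48 h all 6 were higher in N_3: PGLS by 0.68 ± 0.08, TALDO1 by 0.51 ± 0.06, PGD by 0.49 ± 0.08, RPIA by 0.43 ± 0.10, TKT by 0.28 ± 0.08 and RPE by 0.26 ± 0.09, the last of which lost its call without N_2 replicate 2 or N_3 replicate 3 (0.22 and 0.21, adjusted p = 0.0774 and 0.0861). Scaling by library totals alone moved the median of all genes in this comparison by -0.12, and RPE was then at 0.15 and not called. At 24 h TKT was lower in N_3 (-0.61 ± 0.11) and RPE, RPIA and IDH1 higher (0.98 ± 0.16, 0.68 ± 0.14 and 0.38 ± 0.11), and ME1 was lower (-0.35 ± 0.12), the last of which lost its call without N_2 replicate 3 or N_3 replicate 2 (both -0.26, adjusted p = 0.0881 and 0.0926).

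These 24 h differences between N_3 and N_2 moved with the libraries and the scaling used. Leaving out the 3 libraries gave 6 calls (51.8% of all genes), with RPE at 0.71 ± 0.10, RPIA at 0.62 ± 0.12, IDH1 at 0.41 ± 0.10, TKT at -0.59 ± 0.11 and ME1 at -0.26 ± 0.10 (adjusted p = 0.0494), and PGLS passed as well (0.79 ± 0.21). With library totals alone the median of all genes moved by 0.32. TKT was then at -0.29 ± 0.09 and ME1 at -0.05 ± 0.13, the latter not called, while IDH1 was at 0.68 ± 0.13, RPIA at 1.00 ± 0.16 and RPE at 1.30 ± 0.19. PGLS (0.85 ± 0.26) and TALDO1 (0.31 ± 0.11) were called under that scaling as well.

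MOO and OO also differ by Mac, in the absence of the rest of CKI. At 24 h none of the 8 was called between them, nor was any gene of the table (0%). The unadjusted p was under 0.05 for 0 of the 8 and for 566 of 15191 genes, and DESeq2 called 0 of the 8. At 48 h 1 was called (1.98%): ME1 was higher with MOO (33.1, 33.6 and 31.0 CPM against 28.3, 26.9 and 27.1 CPM, 0.25 ± 0.06, adjusted p = 0.0406), and this call was lost when any 1 of the 6 libraries was left out (0.22 to 0.28, adjusted p from 0.0664 to 0.2).

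**Figure D3:**
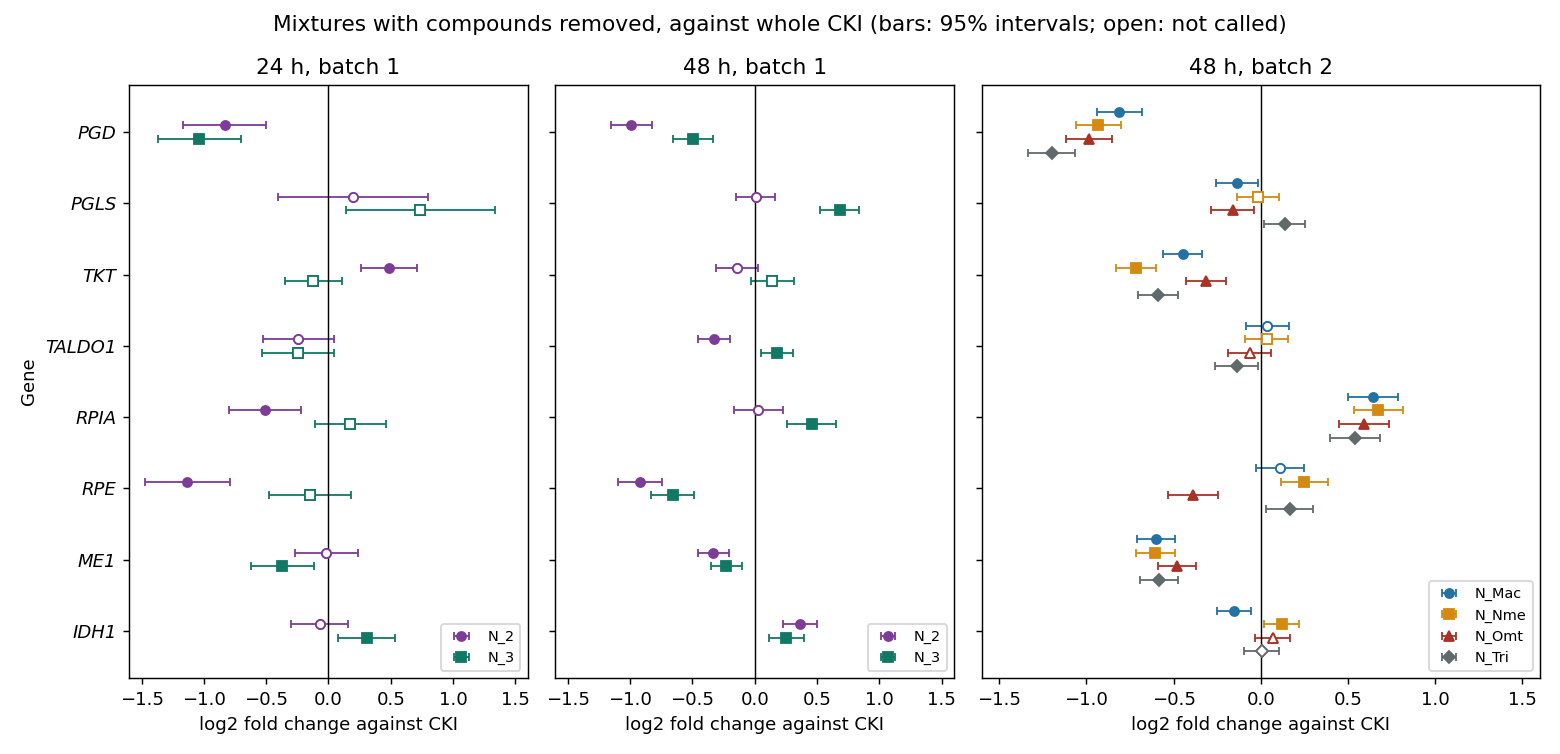
Log2 fold change of each gene against whole CKI (x axis) for N_2 and N_3 at 24 h and 48 h in batch 1 and for the 4 mixtures lacking 1 compound in batch 2, with 95% intervals. Filled points passed the threshold and open ones did not, and all 8 PGD points lie to the left of 0, between -0.50 and -1.20.

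Between 24 and 48 h in batch 1 the changes were tested for a difference. None of the 8 differed with CKI (0.391% of all 15858 genes), with OO (8.06%) or with MOO (2.59%). For these counts of 0, edgeR gave an unadjusted p under 0.05 for 0, 1 (RPE with OO) and 0 of the 8, and DESeq2 called none. With N_2, 2 differed (34.2%): the TKT change was lower at 48 h by 0.78 ± 0.13 (adjusted p = 4.41e-05) and the IDH1 change higher by 0.31 ± 0.12 (adjusted p = 0.0472). The IDH1 difference lost its call when any 1 of 8 libraries was left out (UT replicates 1 and 2 and N_2 replicates 1 and 2 at 24 h, UT replicates 2 and 3 and N_2 replicates 1 and 2 at 48 h, at 0.24 to 0.30). With library totals alone the median of all genes in this N_2 difference moved by 0.35, TKT was at -0.43 ± 0.10 and IDH1 at 0.65 ± 0.14, and RPIA (0.70 ± 0.19) and PGD (0.38 ± 0.15) were called too. With N_3, 2 differed (7.35%): the PGD change was higher at 48 h by 0.71 ± 0.18 (adjusted p = 0.0125) and the RPE change lower by 0.78 ± 0.18 (adjusted p = 0.00561). Without the 3 libraries that resembled batch 2 these values were 0.56 ± 0.12 and -0.51 ± 0.13, and 2 further differences passed, RPIA with N_2 (0.35 ± 0.14, adjusted p = 0.0489) and RPE with OO (-0.41 ± 0.12, adjusted p = 0.0256). Between the batches, 2 of the 8 differed in the CKI change at 48 h (13.8% of all 14858 genes), with ME1 lower in batch 2 by 0.34 ± 0.08 (adjusted p = 0.00812) and TKT higher by 0.21 ± 0.06 (adjusted p = 0.0264). The TKT call was lost without UT replicate 2 or 3 or CKI replicate 2 of batch 1, or UT replicate 1 or CKI replicate 1 or 3 of batch 2 (0.20 to 0.22, adjusted p from 0.0518 to 0.0758).

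**Figure D4:**
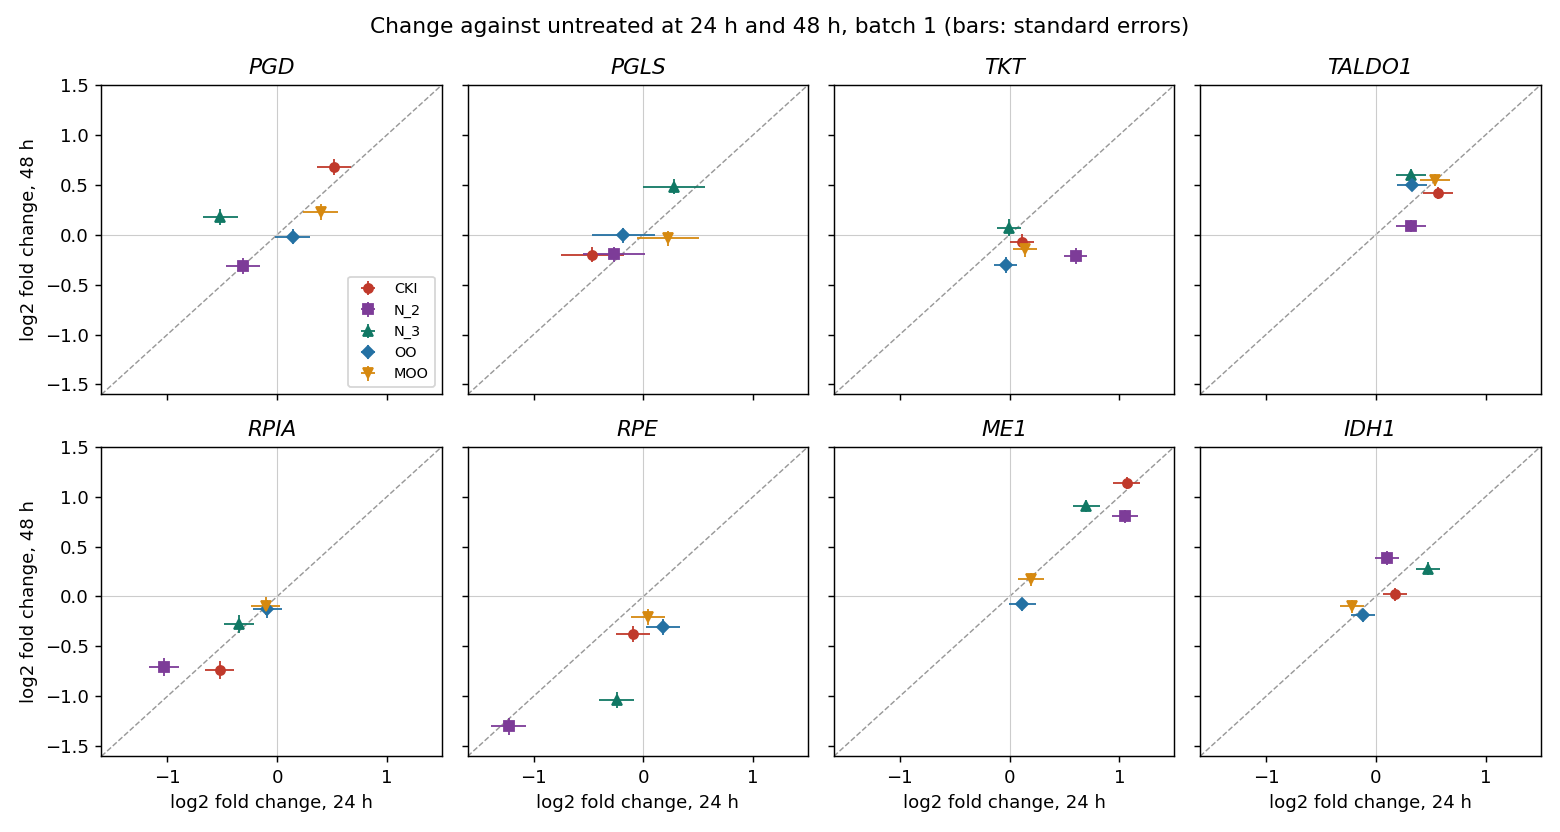
Log2 fold change against untreated cells at 24 h (x axis) and at 48 h (y axis) in batch 1, with 1 panel per gene, 1 point per treatment and bars of 1 standard error. Points on the dashed line changed equally at both times, and TKT with N_2 lies far below it at 0.60 and -0.21.

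Over the 18 groups, after the mean of each time and batch was subtracted, RPIA and ME1 were the most opposed pair of the 8 (Pearson's r = -0.87) and RPIA and RPE the most similar (r = 0.70). RPE and ME1 were also opposed (r = -0.63), and ME1 and IDH1 moved together (r = 0.58). PGD followed none of the others closely, with r from -0.42 (IDH1) to 0.41 (TALDO1). These correlations are over 18 group means, and subtracting the mean of each time and batch ties together the groups within it. They are given as a description. Among the 9773 genes that averaged 10 CPM or more, the patterns most like each member were those of QSOX1 and RNASEH2C for PGD (both r = 0.89), NAGLU (0.81) and TRABD (0.79) for PGLS, PYGB (0.95) and UQCRC1 (0.90) for TKT, and CENPBD1P1 and LUCAT1 for TALDO1 (both 0.84). For RPIA they were DKC1 and RRP15 (both 0.96), which serve ribosomal RNA processing, for RPE KRCC1 and YTHDC2 (both 0.98), for ME1 LIPH (0.92) and OTUB2 (0.91), and for IDH1 SPSB2 and SLC16A5 (both 0.86).

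The rest of the pathway is given by lists chosen by function, with earlier results of these data known. Their counts stand beside shares of all genes called of 10.5% to 78.2% in the 15 comparisons with untreated cells, which take both directions together. With MOO at 24 h, the lowest share, 852 of 15191 genes rose and 736 fell. With N_Omt, the highest, 5802 of 15115 rose and 6025 fell. The lists were not tested against these shares. Of 12 other genes of pentose and ribose phosphate metabolism, 9 could be tested, and in a comparison with untreated cells 1 to 3 of them rose and 0 to 7 fell. The list median lay between -1.08 (N_2 at 48 h) and 0.06. RBKS, ribokinase, fell in 14 of the 15 comparisons, DERA, which cleaves deoxyribose phosphate, in 13, and PRPS1, which makes the activated ribose of nucleotide synthesis, in 12. PGM2, which feeds ribose phosphate into the pathway from nucleosides, rose in 10 and fell in 2. Among 11 other genes linked to the supply of NADP+ or NADPH, 0 to 3 rose and 1 to 9 fell, with a median of -0.95 to -0.02. IDH2 and NNT, both mitochondrial, and MTHFD1 of the folate cycle fell in 13 of 15 each, against IDH1, which fell in 1, and MTHFD2 rose in 11 and fell in 3.

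Of 12 genes that either use NADPH as reductases or are known targets of the transcription factor NRF2, 7 to 11 rose and 0 to 2 fell in every comparison, with a median log2 fold change of 0.54 (OO at 24 h) to 1.43 (N_3 at 48 h), where the median of all genes was at most 0.03 from 0. FTL, GCLC, GCLM, SLC7A11, SRXN1 and TXNRD1 rose in all 15. GSR rose in 14, AKR1B10 and HMOX1 in 13 each and AKR1C1 in 11, and none of these fell. NQO1 was mixed, with 5 rises and 3 falls and values between -0.79 and 1.27. The range was 0.92 to 2.96 for SLC7A11, the cystine importer, and 0.50 to 1.88 for GCLM, a subunit of the enzyme that starts glutathione synthesis. TXNRD2, the mitochondrial thioredoxin reductase, rose in none and fell in 10. In the 17 glycolysis genes the direction differed between treatments, with medians from -0.70 (N_2 at 48 h, 3 higher and 11 lower) to 0.42 (MOO at 24 h, 8 higher and 0 lower). HK1, hexokinase, rose in all 15, ENO1 fell in 11 and PKM fell in 10.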

How the data were processed

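RNA was read from MDA-MB-231 cells by strand-specific, oligo(dT)-primed paired-end sequencing. The authors trimmed reads with Trim Galore 0.3.7 after FastQC 0.11.4, aligned them to hg19 with STAR 2.5.3a and deposited raw counts per gene, made with featureCounts of Subread 1.5.2, and their processing notes also name edgeR 3.22.3. The annotation, strand setting and treatment of multi-mapped reads are not given in the sources used here. All 54 columns were matched to samples by the column name in the sample description, beside the title, and 1 N_3 column at 24 h adds .A to that name.

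Counts were tested with edgeR 4.0.16 (quasi-likelihood, R 4.3.3) after filterByExpr and TMM scaling, with 1 fit of 18 libraries per time and batch, 36 libraries for time and 12 for batch. P-values were adjusted by the Benjamini-Hochberg method over all genes tested, and a gene was called at an adjusted p under 0.05. The SE of a log2 fold change was its size divided by the root of the F statistic. The biological coefficient of variation was 0.175 at 24 h, 0.0763 at 48 h in batch 1 and 0.0480 in batch 2. The SE of the PGD change with CKI was 0.16, 0.08 and 0.06 in the same order. Precision thus rested on the spread between libraries as well as on total counts per library, and intervals cover the spread between these libraries. DESeq2 1.42.0, RLE and library-total scaling, other filters, other sets of libraries, a replicate block and leaving out each library were tried as alternatives. The scripts were tested on simulated data. None of the 54 library pairs within a group agreed within sampling noise, and pairs across groups were not checked for this. The members and gene lists were chosen with earlier results of these data known. All 8 members were named in every comparison, and the 2 genes most like each member by Pearson's r over group means.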

Additional observations from a re-analysis of the deposited data

Results flagged for a closer look

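Differences between times or batches in the change against untreated cells were called for 6 results, each by a test of the difference itself. With N_2, the TKT change was lower at 48 h than at 24 h by a log2 difference of -0.785 (adjusted p = 4.41e-05, edgeR), from a rise to a fall. The IDH1 change with N_2 was higher at 48 h by 0.311 (adjusted p = 0.0472), and leaving out any 1 of 8 libraries ended that call. With library totals alone these N_2 differences were -0.43 for TKT and 0.65 for IDH1. With N_3, the PGD change was higher at 48 h by 0.712 (adjusted p = 0.0125) and the RPE change lower, at -0.777 (adjusted p = 0.00561). N_3 replicate 2 at 24 h resembled batch 2, and without it and the other 2 such libraries these differences were 0.56 for PGD and -0.51 for RPE. With CKI at 48 h, the TKT change was higher in batch 2 than in batch 1 by 0.213 (adjusted p = 0.0264) and the ME1 change lower, at -0.341 (adjusted p = 0.00812). No group held more than 3 libraries, so single libraries were not tested as outliers.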

How the results depend on the processing

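Of 4104 recomputed member values, 3839 stayed on their side of the threshold, 197 lost a call and 67 gained one. A change of sign where neither value was called counts among the 3839, and a called value kept its sign there. A further 1 changed sign and was called in 1 of its 2 settings. TALDO1 in N_3 against N_2 at 24 h was 0.31 with library totals alone, against 0.00 with TMM, because N_2 libraries have low TMM factors. DESeq2 and RLE scaling kept 262 of 264 values each, and the fit of all 54 libraries 225 of 264. Same-numbered libraries of different groups deviated together (r over 0.1) in 16, 15 and 9 of 45 pairs in the 3 fits. Their median r was -0.07 at 24 h, -0.03 at 48 h in batch 1 and 0.04 in batch 2. For pairs with other numbers it was 0.07, -0.02 and -0.02. These values do not settle whether replicate numbers pair the libraries. With the replicate block, 0 of the 8 were called for MOO against OO at 48 h (1 without the block) and 1 for N_2 across times (2 without).

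Counts of the 8 genes called moved as follows. Library totals alone gave 1 for OO at 24 h, 2 for OO at 48 h, 0 for MOO against OO at 48 h and 4 for N_2 across times. RLE gave 1 for N_2 across times. No filter beyond 1 count gave 2 for MOO at 48 h, 0 for MOO against OO at 48 h and 1 for N_2 across times. Without the 3 libraries, N_3 gave 7, MOO 2, N_3 against CKI 5 (all at 24 h) and OO across times 1. With only the groups compared, MOO at 24 h gave 3, N_3 against CKI at 24 h 1, MOO against OO at 48 h 3, and across times N_2 gave 1, N_3 0, OO 1 and MOO 1. All 54 libraries in 1 fit gave 1 for OO and 3 for MOO at 24 h, 1 for MOO at 48 h, 5 for N_Omt, 5 for N_3 against CKI at 24 h, 0 for MOO against OO at 48 h, 4 for N_Tri against CKI, 1 for OO across times and 0 for CKI across batches. A further minimum of 1 in absolute log2 fold change left 3 for N_2 at 24 h, 1 for CKI at 24 h and for CKI, N_2 and N_3 at 48 h in batch 1, 1 for N_2 and N_3 against CKI at 24 h and for N_Tri against CKI, and 0 in all other comparisons.

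Leaving out 1 library gave 0 to 1 for MOO at 24 h, 1 to 4 for N_3 against CKI at 24 h, 1 to 4 for MOO at 48 h, 0 for MOO against OO at 48 h, 4 to 5 for N_Tri against CKI, 1 to 2 for N_2 across times and 1 to 3 for CKI across batches. At 24 h the larger spread between libraries limits what could be called. The number of all genes called also moved by over 1.5 times. MOO at 24 h called 1588, and 3108 without the 3 libraries, 5097 with only the groups compared and 4001 with all 54 libraries in 1 fit. CKI and OO at 24 h called 4562 and 2543, and 7404 and 5640 in the fit of all 54. N_3 against CKI at 24 h called 5422, and 3339 with only the groups compared. MOO against OO at 48 h called 307, and 505 by DESeq2, 1402 with only the groups compared and 27 in the fit of all 54. Across times, CKI called 62 (189, 232 and 272 under these settings in the same order, and 40 with no filter beyond 1 count), MOO 410 (742, 3100 and 995), N_3 1166 (529 with only the groups compared and 2033 in the fit of all 54) and OO 1278 (2118 in that fit). Leaving out the 3 libraries, the comparison across times called 186 genes with CKI, 1386 with MOO, 2281 with N_3 and 2194 with OO. CKI across batches called 2048, and 260 in that fit.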
